A study of Saccharomyces cerevisiae with 50 samples.

Results

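The genes studied here are the 9 that encode the replicative helicase and its loading machinery in budding yeast, Saccharomyces cerevisiae: MCM2 (YBL023C), MCM3 (YEL032W), MCM4 (YPR019W), MCM5 (YLR274W), MCM6 (YGL201C), MCM7 (YBR202W), MCM10 (YIL150C), CDC6 (YJL194W) and CDT1 (YJR046W, listed as TAH11). They were chosen by open reading frame identifier, and all 9 were found among the 6205 open reading frames on the arrays. RNA came from a strain deleted for yox1. Its cells were held in G1 by alpha factor, the pheromone that a-cells respond to, then washed into YEPD medium and sampled at 25 times from 0 to 120 min. The reference on every array was RNA of an asynchronous wild-type culture grown in YEPD, so each value compares the mutant at 1 time with unsynchronised cells that carry YOX1. No wild-type time course was used here, and the labels give neither the strain background nor the number of cultures.

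Mcm2 to Mcm7 form the ring-shaped motor that unwinds DNA at the replication fork. During late mitosis and G1 the ring is loaded onto origins, a step called licensing, by the origin recognition complex together with Cdc6 and Cdt1, and it is switched on in S phase by kinases and by factors such as Cdc45, GINS and Mcm10. Several of these genes carry early cell cycle boxes (ECBs), promoter elements bound by the MADS-box protein Mcm1 and active around the passage from mitosis to G1 (M/G1). Yox1 and its relative Yhp1 are homeodomain repressors that act with Mcm1 at such elements.

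Each of the 25 time points was measured on 2 arrays, which fall into array sets 1 and 2. Values are log2 ratios of the mutant over the reference, centred on each array's median and averaged over both arrays of a time point. The log10 base of the deposited values and their direction are inferred, not stated, so every size below rests on them. The 9 genes had 440 of 450 possible values, with MCM4 missing on 4 arrays. The deleted gene read below 0 on 49 of 49 arrays with a YOX1 value (median -1.08), and the pheromone-induced genes FUS1 and AGA1 stood at 3.82 and 5.45 at 0 min. The a-cell genes MFA1, MFA2 and STE2 stood at 3.71, 2.03 and 1.85 at that time, whereas of the alpha-cell genes MF(ALPHA)2 was at 0.48, STE3 at -0.28 and MF(ALPHA)1 was not measured. The 6 arrays of 25, 40 and 55 min stood apart, with an SD over genes of 0.74 to 1.23 against 0.33 to 0.83 on the other 44 arrays. P-values measure the scatter between time points of what may be a single culture. In bulk RNA, more cells in a phase and more RNA per cell cannot be told apart.

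Genes of the helicase ring were higher in the second passage through M/G1 than in the S/G2 that followed. All 6 of MCM2 to MCM7 stood higher at each of 65, 70, 75 and 80 min than at any of 100, 105, 110 and 115 min, and 5 of the 6 passed the test. The earlier times are taken as the second M/G1 and the later ones as the second S/G2. Such phase names are labels for times after release, since no budding or DNA content was used here. MCM2 and MCM5 had the widest steps, 1.60-fold and 1.61-fold, and MCM6 the narrowest, 1.18-fold. Among all genes, 8.38% had windows that did not overlap with the M/G1 window on top, and 8.14% with it below. Of the 9 licensing genes, 5 were called higher and 0 lower (limma, adjusted p under 0.05); over 6044 genes tested, 2.96% were called higher and 3.52% lower, 6.49% in all. The median difference of MCM2 to MCM7 was 0.49 on the log2 scale, against 0.01 for all genes tested. All 16 arrays of this comparison carry 1 title date per array set, so it is not tied to the date.

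**Figure D1:**
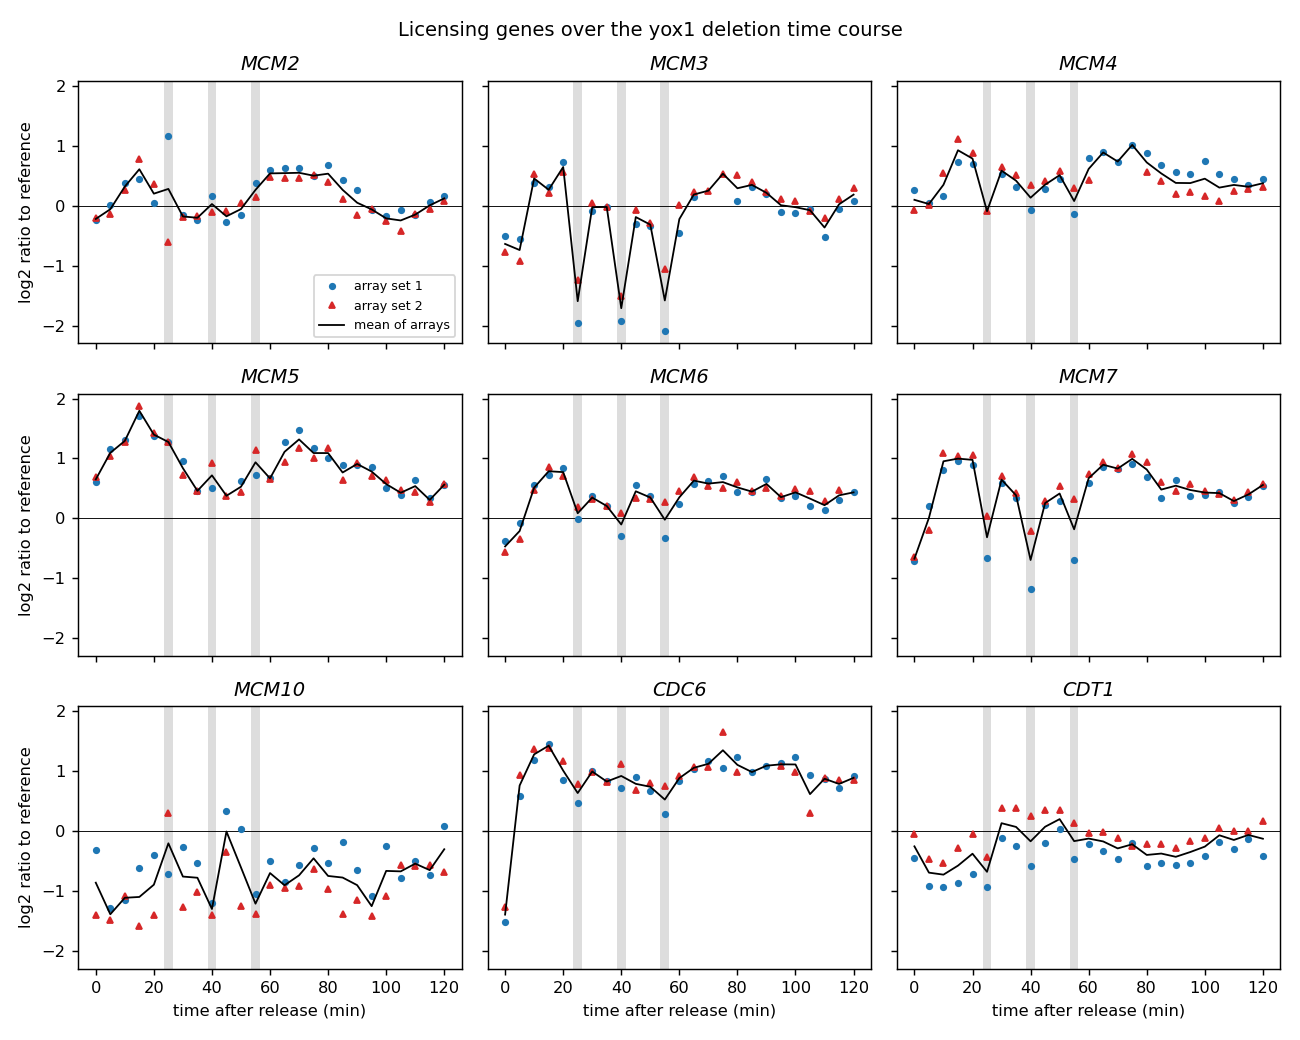
Log2 ratio to the reference (vertical axis) against minutes after release (horizontal axis) for each of the 9 genes, with circles for array set 1, triangles for array set 2 and a line for their mean; grey bands mark 25, 40 and 55 min. MCM5 and CDC6 are the highest of the set around 15 min, at 1.80 and 1.42, and MCM3 drops below -1.5 in each grey band.

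MCM2, a ring subunit phosphorylated by the kinase Cdc7 when origins fire, was at 0.54, 0.55, 0.50 and 0.53 at 65, 70, 75 and 80 min. At 100, 105, 110 and 115 min it was at -0.21, -0.25, -0.15 and 0.01, so the M/G1 values were nearly level and all lay above the later ones. The difference was 0.68 ± 0.07 (SE, 4 against 4 time points; limma adjusted p = 0.00107), and sets 1 and 2 gave 0.70 and 0.67 when taken singly.

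MCM5, the ring subunit long known as CDC46, was the ring gene furthest above the reference. Its M/G1 values were 1.11, 1.32, 1.09 and 1.09, and its S/G2 values 0.57, 0.43, 0.54 and 0.31. The difference was 0.69 ± 0.08 (limma adjusted p = 0.00167), with 0.76 and 0.62 in sets 1 and 2.

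MCM7, also known as CDC47, stood at 0.90, 0.83, 0.99 and 0.82 in M/G1 and at 0.43, 0.42, 0.29 and 0.40 in S/G2. Its difference of 0.50 ± 0.07 (limma adjusted p = 0.00289) was 0.45 in set 1 and 0.55 in set 2. MCM2, MCM5 and MCM7 were the members called in each array set taken alone.

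MCM4 rose from 0.45, 0.30, 0.35 and 0.32 in S/G2 to 0.89, 0.74, 1.01 and 0.72 in M/G1, by 0.49 ± 0.08 (limma adjusted p = 0.00863). Set 2 lacked MCM4 at 65, 70 and 75 min, and set 1 ran above set 2 in S/G2 (0.52 against 0.19), so part of the averaged step is the change of array set. Within a set the step was 0.36 in set 1 and 0.37 in set 2, the latter from 1 M/G1 array, and in set 1 alone the call was lost (limma adjusted p = 0.102).

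MCM3 and MCM6 moved the same way with weaker tests. MCM3 was at 0.19, 0.25, 0.53 and 0.29 against -0.02, -0.08, -0.36 and 0.02, a difference of 0.43 ± 0.11 (limma adjusted p = 0.0447). That call was lost when any of the 8 time points was left out (adjusted p from 0.0545 to 0.0978) and without the 75 min array of set 2 (adjusted p = 0.109). Set 1 lacked MCM3 at 70 and 75 min. Set 2 ran above set 1 in S/G2 (-0.03 against -0.19), so part of the averaged step is the change of array set. Within a set the MCM3 step was 0.30 in set 1 and 0.41 in set 2. It could not be tested in set 1 alone and did not pass in set 2 alone (limma adjusted p = 0.0555). MCM6 was at 0.63, 0.58, 0.61 and 0.52 against 0.43, 0.33, 0.22 and 0.38, a difference of 0.24 ± 0.07 that did not pass (limma adjusted p = 0.0617). With arrays fitted singly, the time point as a block and the array set as a term, MCM6 passed as well (limma adjusted p = 0.0279). In that fit the 2 arrays of a time point count singly, linked by an estimated correlation.

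**Figure D2:**
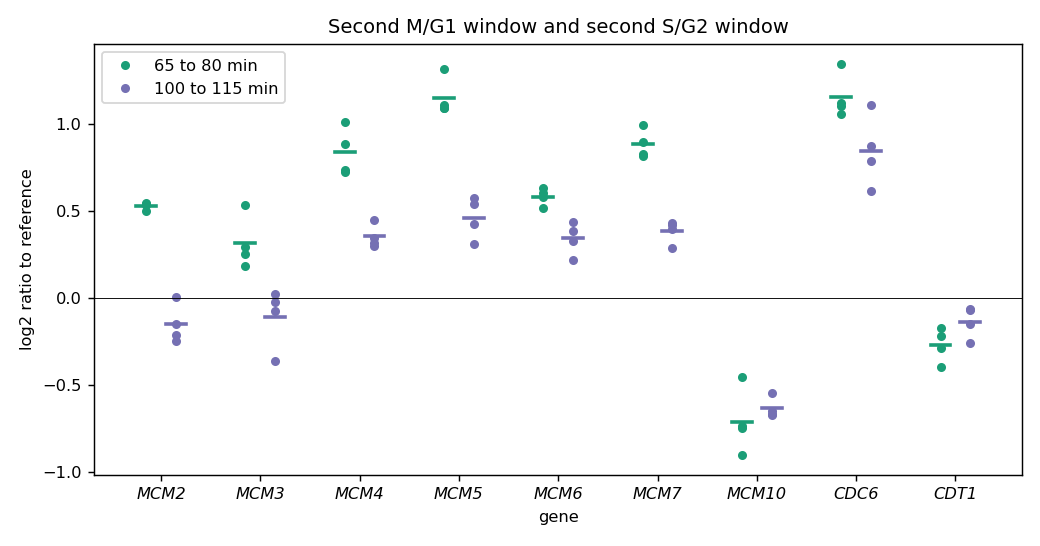
Log2 ratio to the reference (vertical axis) for each gene (horizontal axis), with 1 point per time point (mean of 2 arrays where both measured the gene) and a bar for the mean of the 4 points of 65 to 80 min or of 100 to 115 min. The 2 clouds are separate for MCM2 to MCM7, whereas they overlap for MCM10, CDC6 and CDT1.

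CDC6, CDT1 and MCM10 did not pass this test, which does not show that they differ from the ring genes; that difference was not tested. CDC6, the ATPase that helps load the ring, was at 1.06, 1.12, 1.35 and 1.10 in M/G1 and at 1.11, 0.62, 0.87 and 0.79 in S/G2; the windows overlapped and the difference was 0.31 ± 0.11 (limma adjusted p = 0.132). Its 75 min values differed between sets, at 1.05 and 1.65. CDT1, whose protein escorts the ring to the origin, was lower in M/G1 (-0.17, -0.29, -0.22 and -0.40) than in S/G2 (-0.26, -0.07, -0.15 and -0.06), by -0.13 ± 0.07 (limma adjusted p = 0.314). MCM10, which acts on the loaded ring and at the fork, differed by -0.08 ± 0.09 (limma adjusted p = 0.665).

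From 0 to 15 min after release, values of 7 of the 9 genes went up on both arrays, a look chosen after seeing the data. CDC6 moved furthest. It was at -1.52 and -1.27 on the 2 arrays of 0 min, at 0.58 and 0.94 at 5 min, at 1.19 and 1.37 at 10 min and at 1.46 and 1.39 at 15 min. Both sets showed the jump, which was 4.45-fold from 0 to 5 min and 7.06-fold from 0 to 15 min. The set 2 arrays of 0, 5 and 15 min have an unexplained M in their titles. In set 2 the steps of all 7 genes rest on them. The step over the first 5 min exceeded that of 99.9% of all genes tested. With 1 time point on each side it has no test.

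MCM7 went from -0.71 and -0.64 at 0 min to 0.96 and 1.04 at 15 min, by 3.18-fold. MCM6 went from -0.38 and -0.56 to 0.72 and 0.85, by 2.39-fold, and MCM5 from 0.61 and 0.69 to 1.71 and 1.88, by 2.21-fold. MCM3 (1.87-fold), MCM2 (1.78-fold) and MCM4 (1.77-fold) had smaller steps over the same interval, whereas MCM10 and CDT1 changed by -0.24 and -0.32 on the log2 scale. The steps of these 7 genes lay between the percentiles 93.7 and 99.7 of all genes tested, and they too have no test.

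The arrest window of 0, 5 and 10 min was then set against 70, 75 and 80 min, about 1 cycle later, which shares time points with the M/G1 window above. Samples of 5 and 10 min came after the wash, so the arrest window mixes arrested with released cells. FUS1 was at 3.82, 0.56 and -0.57 at 0, 5 and 10 min. All 9 genes had a lower mean in the arrest window, and the median difference of MCM2 to MCM7 was -0.64, against -0.01 for all genes tested. MCM4 alone passed, at -0.67 ± 0.14 (limma adjusted p = 0.0388), 1 of 9 genes; 2.46% of 6051 genes were called lower and 3.75% higher, 6.21% in all. The windows of MCM2, MCM4, MCM6 and MCM10 did not overlap, beside 16.3% of all genes with the arrest window below. MCM4 was at 0.10, 0.03 and 0.35 in the arrest window and at 0.74, 1.01 and 0.72 later, but the call was lost without 0, 5, 70, 75 or 80 min (adjusted p up to 0.154) and without the 75 min array of set 2 (0.0544). MCM4 differed by -0.72 in set 1 and by -0.40 in set 2, where 70 and 75 min are missing, so the averaged later window rests mostly on set 1. CDC6 had the widest difference, -0.98 ± 0.63, and did not pass (limma adjusted p = 0.370), nor did it without any single time point (lowest adjusted p 0.109). Its values at 0, 5 and 10 min were -1.39, 0.76 and 1.28. MCM7 differed by -0.78 ± 0.37, MCM3 by -0.67 ± 0.31, MCM6 by -0.62 ± 0.24, MCM2 by -0.51 ± 0.15 and MCM5 by -0.15 ± 0.18.

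Leaving out 10 min changed these calls. Without it, 5 genes were lower at 0 and 5 min: MCM2, MCM3, MCM4, MCM6 and MCM7 (limma adjusted p from 0.00629 to 0.0145). The count over all genes rose from 376 to 1219. In set 1 the 2 windows have different title dates. In set 2 the 10 min array shares its date with 70, 75 and 80 min, but a single array gives no test within a date. Date and cell cycle position therefore cannot be told apart here.

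In the first cycle the fall into S/G2 was clearest for MCM5, and CDT1 ran opposite to it. The windows, chosen after seeing the data, were 5, 10, 15 and 20 min against 30, 35, 45 and 50 min. In set 1 all arrays of both windows share a title date. In set 2 the arrays of 5, 10 and 15 min carry other dates than the rest. Those of 5 and 15 min also have an unexplained M in their titles. In set 2, date and window therefore cannot be fully told apart. MCM5 was at 1.09, 1.29, 1.80 and 1.40 in the early window and at 0.84, 0.46, 0.38 and 0.53 in the later one, a difference of 0.84 ± 0.16 (limma adjusted p = 0.0213). CDT1 was at -0.69, -0.73, -0.58 and -0.38 early and at 0.13, 0.07, 0.07 and 0.20 later. The 2 windows of CDT1 did not overlap, and the difference was -0.71 ± 0.10 (limma adjusted p = 0.0106), with -0.73 in set 1 and -0.70 in set 2. Thus 1 of 9 genes was called higher and 1 lower, beside 5.25% and 5.46% of 6057 genes. MCM2 differed by 0.42 ± 0.13 (limma adjusted p = 0.0737) and MCM10 by -0.59 ± 0.18 (limma adjusted p = 0.0691). MCM3, MCM4, MCM6, MCM7 and CDC6 differed by 0.06 to 0.31, with adjusted p-values from 0.211 to 0.855.

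Over the whole course, a wave with the cell cycle's period was called for MCM2, MCM5 and CDT1. The period, 70 min, was fitted on 65 cell cycle genes that include none of the 9. Of the licensing genes, 3 of 9 were periodic (limma F-test, adjusted p under 0.01), beside 13.2% of 6063 genes. Their median fitted peak-to-trough size was 0.52 on the log2 scale, against 0.30 for all genes tested.

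MCM5 swung by 0.67 ± 0.14 (SE, 25 time points) with a fitted peak at 10.2 ± 2.42 min (limma adjusted p = 0.00404). MCM2 swung by 0.58 ± 0.13 with a peak at 2.39 ± 2.58 min (limma adjusted p = 0.00697). CDT1 swung by 0.50 ± 0.10 with a peak at 47.3 ± 2.35 min (limma adjusted p = 0.00321). Counted from release, that is later than any ring gene's fitted peak, though on a repeating cycle it also precedes their next peaks. MCM5 lost its call without 45 min (adjusted p = 0.0131) and CDT1 without 50 min (adjusted p = 0.0117). MCM2 lost its call without any one of 10, 30, 35, 45, 50, 60, 65, 70, 75, 80, 100, 105 or 110 min (adjusted p up to 0.0189). With a period 5 min longer, MCM2 (0.0192) and MCM5 (0.0211) did not pass and CDT1 did. In set 1 alone only MCM5 passed, and in set 2 alone only CDT1. With the title date as a factor MCM5 and CDT1 passed and MCM2 did not (limma adjusted p = 0.193). Within the 4 dates that hold 8 or more time points, 0, 0, 0 and 1 members passed, the 1 being MCM2.

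The other ring genes had fitted peaks near those of MCM2 and MCM5 but did not pass. MCM4 peaked at 6.30 ± 4.83 min, MCM7 at 9.55 ± 4.32 min, MCM3 at 10.7 ± 3.71 min and MCM6 at 14.0 ± 5.37 min, with adjusted p-values from 0.0696 for MCM3 to 0.277 for MCM6. MCM3, whose lowest values are those of 25, 40 and 55 min, passed with arrays scaled to the same spread (limma adjusted p = 0.00896). CDC6 followed at 18.96 ± 5.90 min (limma adjusted p = 0.360). With these errors the order within MCM2 to MCM7 is not resolved. MCM10 had the smallest wave, 0.24 ± 0.19 (limma adjusted p = 0.612).

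**Figure D3:**
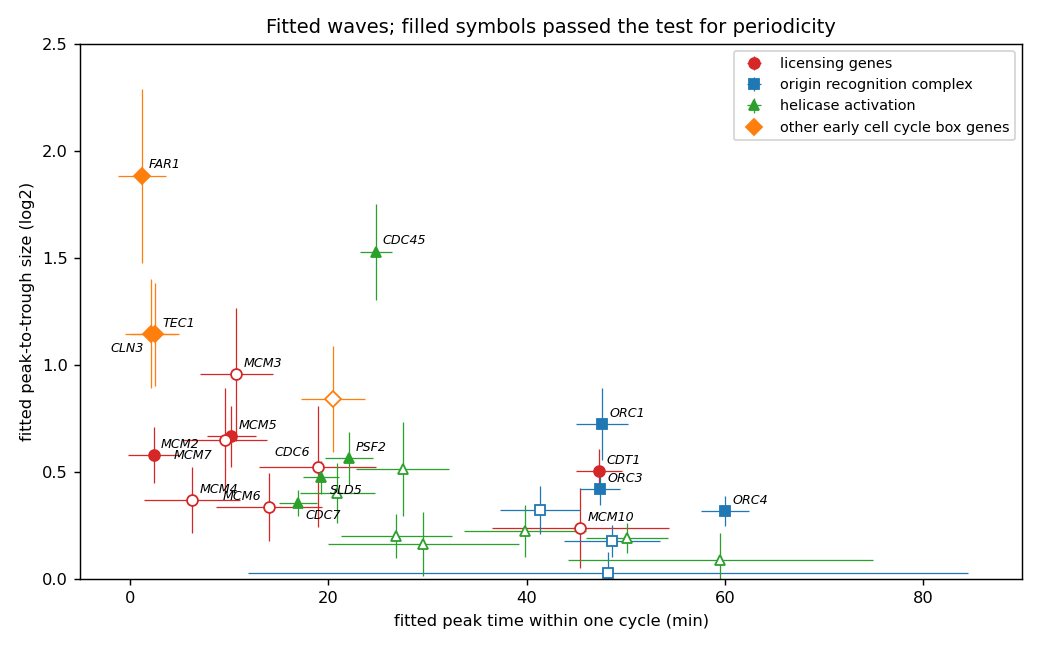
Fitted peak-to-trough size on the log2 scale (vertical axis) against the fitted peak time within 1 cycle of 70 min (horizontal axis), with SE bars, for the licensing genes and 3 related lists; filled symbols passed the test for periodicity. The ring genes lie between 2.39 and 14.0 min, and CDT1 lies at 47.3 min beside ORC1 and ORC3.

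In a description chosen after seeing the data, the ring genes' highest values in the first and second cycle lay closer together than the fitted period. With 25, 40 and 55 min set aside, the highest value up to 60 min was at 15 min for MCM2, MCM4, MCM5, MCM6, MCM7 and CDC6, and at 20 min for MCM3. The highest value after 60 min was at 65 min for MCM6, at 70 min for MCM2 and MCM5, and at 75 min for MCM3, MCM4, MCM7 and CDC6. The interval was thus 50 to 60 min for MCM2 to MCM7, with a median of 55 min against the fitted period of 70 min. The medians were 67.5 min for 20 MBF targets, the late G1 genes of DNA synthesis, 75 min for 9 SBF targets, the late G1 genes of budding, and 65 min for 9 histone genes. Times are read on a 5 min grid and the differences between lists were not tested. MCM2 was nearly level from 60 to 80 min, at 0.54, 0.54, 0.55, 0.50 and 0.53, so its second high is loosely placed. In set 1 alone, MCM2 and MCM4 had their highest value up to 60 min at 60 min itself, on the rise of the second wave, while MCM3, MCM5, MCM6 and MCM7 had intervals of 55 to 65 min; in set 2 the 6 genes had intervals of 50 to 65 min.

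**Figure D4:**
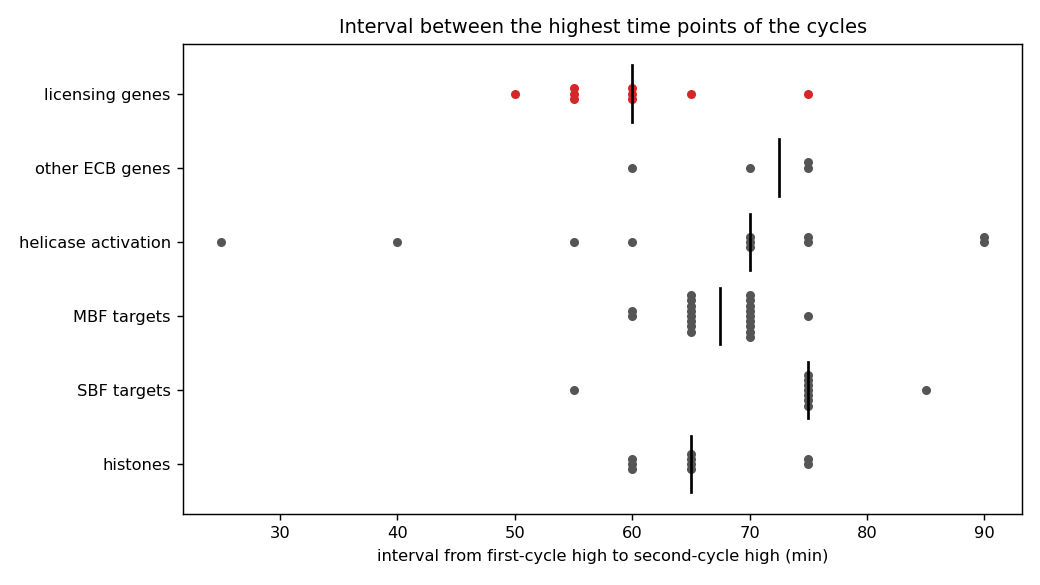
Minutes from the highest time point up to 60 min to the highest time point after 60 min (horizontal axis), 25, 40 and 55 min set aside, with 1 point per gene and a bar at the median of each list (vertical axis). Among the licensing genes, MCM10 (75 min) and CDT1 (65 min) have the longest intervals, and the ring genes lie at 50 to 60 min. The MCM10 interval ends at 120 min, the last sample, and MCM10 did not pass the test for periodicity.

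A test of whether the fitted wave differed between the cycles (time after 60 min) called 0 of the 9 genes by limma at an adjusted p under 0.01, beside 2.59% of 6063 genes called. At an unadjusted p under 0.05 there were 5 of the 9, beside 20.1% of all genes. MCM2 came closest (limma adjusted p = 0.0151), and it was called without 30 min (0.00867) or without 120 min (0.00642). Its fitted sizes were 0.96 up to 60 min and 1.41 after it. Each part is shorter than 1 period, the fit also holds a slope and a step, and these sizes exceed the observed ranges. The MCM2 values ran from -0.22 to 0.61 up to 60 min and from -0.25 to 0.55 after it, so the sizes do not show a larger wave. Without 25, 40 and 55 min, 5 genes were called: MCM2, MCM3, MCM4, MCM7 and CDT1, with adjusted p-values from 0.00217 to 0.00724. The count over all genes then rose from 157 to 970, and cycle and title date cannot be told apart in this test.

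The arrays of 25, 40 and 55 min moved single ring genes in unlike ways. MCM3 was at -1.59, -1.71 and -1.58 at these times, below the mean of its neighbouring time points by -1.90, -1.61 and -1.31. On the single arrays it lay between -2.10 and -1.06, under every other MCM3 value of the course. MCM7 lay below its neighbours by -1.13, -1.01 and -0.72 and MCM6 by -0.47, -0.43 and -0.37. MCM5 lay above them by 0.16, 0.30 and 0.34, and MCM2 by 0.27, 0.22 and 0.02. The 25 min value of MCM2 is a mean of 1.16 and -0.60 on the 2 arrays. At these times the departure of MCM3 from its neighbours lay between the percentiles 4.25 and 4.85 of all genes tested, and the larger spread of these arrays moves with them; its part in the drops was not tested.

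The likeness among the ring genes differed with and without these 3 time points. Over 25 time points, which share arrays and the reference, Pearson's r between pairs of MCM2 to MCM7 ran from 0.15 (MCM3 with MCM5) to 0.91 (MCM6 with MCM7), with a median of 0.57 over 15 pairs. Over the other 22 time points it ran from 0.44 to 0.91, with a median of 0.70. CDC6 ran with MCM7 (r = 0.69, and 0.85 without the 3 times) and with MCM6 (0.75 and 0.80). CDT1 ran against MCM5 (r = -0.71, and -0.70 without the 3 times) and with MCM10 (0.38 and 0.68). Between the 2 array sets, r was low for MCM10 (0.25), MCM4 (0.36) and MCM2 (0.39), beside a median of 0.64 over all genes tested. For the other members it lay between 0.74 (CDT1) and 0.92 (MCM3).

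The mean over the course relative to asynchronous wild-type RNA differed widely among the 9 genes. MCM5 was above the reference on all 49 arrays that measured it, from 0.28 to 1.88, and its mean was 0.86 ± 0.05 (SE, 25 time points), 1.82-fold, and it passed the test against 1.5-fold (limma adjusted p = 0.000100). MCM10 was below the reference on 46 of 50 arrays, with a mean of -0.78 ± 0.06 (limma adjusted p = 0.0365). These were the 2 of 9 genes called, 1 in each direction, beside 2.49% of 6063 genes called higher and 4.49% lower, 6.98% in all. The MCM10 call was lost in set 1 alone, where its mean was -0.56, without the arrays titled M (-0.74) and without the 75 min array of set 2 (-0.77). It was also lost with arrays not centred (-0.74, limma adjusted p = 0.127) and with arrays fitted singly and the time point as a block (limma adjusted p = 0.0920). Leaving out any one of 0, 5, 10, 15, 20, 40, 55, 65, 90 or 95 min lost it too (limma adjusted p up to 0.0897). The sets differed for MCM10 by 0.45 ± 0.52 (SD, n = 25 time points).

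CDC6 had the same mean as MCM5, 0.86 ± 0.09, and missed the threshold (limma adjusted p = 0.0544). It passed without 0 min (limma adjusted p = 4.43e-08) or without 105 min (0.0495), and with arrays not centred (0.0200) or scaled to the same spread (0.0144). With arrays fitted singly and the time point as a block it passed as well (limma adjusted p = 0.00477). MCM4 (0.45), MCM7 (0.42), MCM6 (0.34) and MCM2 (0.13) had means above the reference, and CDT1 (-0.25) and MCM3 (-0.16) below it. None of these 6 passed against 1.5-fold. The mutant was always in Cy5, and a gene's own dye effect cannot be told apart from its mean.

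Other genes of origin firing were read from lists of the pathway. In the origin recognition complex, the platform on which the ring is loaded, 3 of 6 genes were periodic, beside 13.2% of all genes tested. They were ORC1 (0.72 ± 0.17, peak at 47.6 min), ORC3 (0.42 ± 0.08, peak at 47.4 min) and ORC4 (0.32 ± 0.07, peak at 60.0 min). Their limma adjusted p-values were 0.00843, 0.000954 and 0.00597. None of the 6 passed between second M/G1 and second S/G2 by limma, with 2 at an unadjusted p under 0.05 (ORC1 at -0.33 and ORC6 at -0.23, the latter named after its value was seen), beside 23.1% of all genes. ORC1 and ORC3 thus shared the fitted peak time of CDT1 to within 1 SE of each, and the profile of ORC3 ran with that of CDT1 (r = 0.66 over 25 time points, and 0.80 over 22). For ORC1 the r with CDT1 was 0.31 over 25 time points and 0.60 over 22. ORC1 had its highest values at 25, 40 and 55 min (0.78, 0.69 and 0.92), and the part of those arrays in its fitted wave was not tested.

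Of 11 genes that activate the loaded helicase, 4 were periodic, beside 13.2% of all genes tested. CDC45, the helicase partner that completes the active motor, had the widest wave at 1.53 ± 0.22 and peaked at 24.8 min (limma adjusted p = 0.000109). The GINS subunit genes SLD5 (0.47 ± 0.08, 19.3 min) and PSF2 (0.56 ± 0.13, 22.1 min) and the kinase gene CDC7 (0.35 ± 0.06, 16.9 min) followed, and SLD2, SLD3, SLD7, DPB11, PSF1, PSF3 and DBF4 did not pass. The circular mean peak of the 4 was 20.8 min (SD 2.96), and that of 20 periodic MBF targets was 23.2 min. None of the 11 passed between second M/G1 and second S/G2 by limma, with 2 at an unadjusted p under 0.05 (DPB11 at -0.25 and DBF4 at -0.19, both named after their values were seen), again beside 23.1% of all genes.

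Of 4 other ECB genes, 3 were called both periodic and higher in second M/G1, where 13.2% of all genes were periodic and 2.96% higher. These were the G1 cyclin gene CLN3, the cyclin kinase inhibitor gene FAR1 and the transcription factor gene TEC1. Their steps from S/G2 to M/G1 were 0.66 ± 0.10, 0.83 ± 0.13 and 0.62 ± 0.11 (limma adjusted p = 0.00544, 0.00578 and 0.0142), beside 0.68 and 0.69 for MCM2 and MCM5. All 3 had their highest first-cycle value at 0 min, when each of MCM2 to MCM7 was below its mean of 65 to 80 min. That time is the pheromone arrest. From 0 to 5 min FAR1 fell from 1.55 to -1.28, TEC1 from 0.86 to -0.19 and CLN3 from 0.23 to -0.27. What part the pheromone had in these highs was not tested. CLN3 had its lowest values at 25, 40 and 55 min (-1.93, -2.16 and -1.28), and so did FAR1 (-3.28, -2.53 and -2.33). The part of those arrays in the periodic calls was not tested either. SWI4, which encodes the DNA-binding subunit of SBF, had its first-cycle high at 20 min and was not called (0.29 ± 0.11; limma adjusted p = 0.157). Over 25 time points SWI4 correlated with the mean standardised profile of MCM2 to MCM7 at r = 0.72, CLN3 at 0.57, FAR1 at 0.14 and TEC1 at 0.02. Over the 22 time points without 25, 40 and 55 min these were 0.77, 0.35, -0.16 and -0.21, so those of FAR1 and TEC1 changed sign.

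Of the regulators themselves, YHP1 changed in the opposite direction to the ring genes in the window comparisons within a cycle. It did not do so in the arrest comparison. It was lower in second M/G1 than in second S/G2 by -0.46 ± 0.06 (limma adjusted p = 0.00363), with -0.45 in set 1 and -0.48 in set 2, and lower in the early window of the first cycle by -0.60 ± 0.13 (limma adjusted p = 0.0285). In the arrest window YHP1 was lower than in the later window by -0.47 ± 0.13, which did not pass (limma adjusted p = 0.0884). The ring genes differed in the same direction there, with a median of -0.64. The r of YHP1 with the mean standardised profile of MCM2 to MCM7 was 0.05 over 25 time points and -0.08 over 22. MCM1 differed by 0.01 ± 0.07 and the YOX1 probe by -0.13 ± 0.14 between the second-cycle windows (limma adjusted p = 0.973 and 0.642).

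The 5 other genes whose profile was most like the mean standardised profile of MCM2 to MCM7 were sought among 5768 genes measured at all 25 time points. They were MSA1, which encodes a G1 transcription cofactor (r = 0.864), FUN26, a vacuolar nucleoside transporter gene (0.864), YGP1, which encodes a secreted glycoprotein (0.846), LAF1 (0.822) and HST4, a sirtuin gene (0.815). All 5 were called higher in second M/G1 than in second S/G2, by 0.62, 0.59, 1.22, 0.24 and 0.38, a description only since likeness chose them. Without 25, 40 and 55 min, FUN26, MSA1, YGP1 and LAF1 were again among the 5 most alike, and MLO50 took the place of HST4.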

How the data were processed

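The authors deposited 1 value per open reading frame and array for 50 two-colour arrays, taken as log10 ratios of the Cy5-labelled time point over the Cy3-labelled reference. Base and direction are inferred: values end at exactly -2 and 2, and FUS1 is high at 0 min. How spots were scanned, corrected, normalized and filtered is not given in the sources used here, and no intensities were used, so the number of arrays limits the precision. Before centring, the median of an array was between -0.0007 and 0.0478 in log10 units.

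Control rows (12 of 6217) were left out, and 5703 of 6205 open reading frames were named by locus tag from a table of assembly R64. The 212 values on the limits, 0 of them in the 9 genes, were set to missing. Values were converted to log2, centred on each array's median and averaged per time point. The 6063 genes measured at 20 or more time points were tested with limma 3.58.1 (R 4.3.3) and adjusted with Benjamini-Hochberg over all of them. Periodicity was an F-test of cosine and sine terms beside a linear time term, at the period between 40 and 90 min that left the least residual variance. The mean was tested with treat. Windows were compared directly, and the cycles by interaction terms. Fits were tested on simulated data; figures used matplotlib 3.10.9.

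Array sets follow the titles. In set 2, the titles at 0, 5 and 15 min hold an unexplained M, and the 75 min array gives 0 min as source name; both were also left out. The protocol in the labels states sampling every 10 min, against 5 min in the design text. The members, lists and named genes (the 9 members, list genes that passed either the periodic or the M/G1 test, YOX1, YHP1, MCM1 and the 5 most alike) were chosen with earlier results of these data known. The windows of the first cycle were added later.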

Additional observations from a re-analysis of the deposited data

Results flagged for a closer look

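Within a window of 4 time points, 2 values of members stood far from the others; chance does this for about 1 in 20 such windows. MCM5 at 70 min stood at 1.32 beside 1.09, 1.09 and 1.11 at the other M/G1 times, and MCM10 at 110 min stood at -0.544 beside values from -0.67 to -0.65 at the other S/G2 times.

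PSF2, which encodes a GINS subunit, was the gene named above whose wave differed between the cycles (limma interaction test, adjusted p = 0.00189). Its fitted size was 1.28 up to 60 min and 0.44 after it, and cycle and title date cannot be told apart. Its values ran from 0.28 to 1.53 (the latter at 25 min) up to 60 min and from 0.42 to 0.64 after it.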

How the results depend on the processing

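Of 1451 values of single members under the alternatives, 1306 kept their direction and their side of the threshold, 77 fell below it, 30 passed it, 38 uncalled values changed sign, most of them size differences between the cycles, and none reversed a call. Counts of genes called follow, first for members and then for all genes. Periodic members numbered 1 in each array set alone (3 in the main result; all genes 562 to 685 against 799), 1 to 3 with single time points left out (all genes 666 to 1033), 1 (CDT1) with a period 5 min longer, and 0, 0, 0 and 1 within the 4 title dates holding 8 or more time points (all genes 36, 234, 0 and 524). Scaled arrays gave 4 periodic members, MCM3 being the added one, and 1224 genes. An adjusted p under 0.05 gave 1433 genes, and leaving out 25, 40 and 55 min 1515. For second M/G1 against S/G2, each set alone called 3 members (5 in the main result; all genes 183 to 314 against 392), single time points left out called 4 (187 to 370), an adjusted p under 0.01 called 119 genes, no 75 min array of set 2 called 242, the replicate block called 660 and the first-cycle windows 2 members and 649 genes. For the arrest, each set alone called 0 to 1 members (246 to 427 genes against 376), single time points left out 0 to 5 (96 to 1219), an adjusted p under 0.01 called 0 (109), no 75 min array of set 2 0 (238), the replicate block 2 (752) and the 65 to 85 min window 2 (874). For the cycles, each set alone called 87 to 92 genes against 157 and 0 members; scaled arrays called 1 (92), an adjusted p under 0.05 called 1 (434), the replicate block 320 genes, a period 5 min longer 1 (247), no 25, 40 and 55 min 5 (970) and single time points left out 0 to 1 (59 to 303). For the mean, each set alone called 1 to 2 members (230 to 755 genes against 423), single time points left out 1 to 3 (384 to 437), and an adjusted p under 0.01, the arrays titled M left out or the 75 min array of set 2 left out 1 each. A fold threshold of 1 called 8 members (4515 genes) and of 2 called 0 (81). Stricter thresholds lower counts by construction; the cause of the other shifts was not tested. Same-numbered arrays share an array set, not a known culture. The replicate block fitted arrays singly, with the time point as block and the array set as a term. It thus counts the repeat arrays of a time point singly, linked by an estimated correlation. For the mean it called 2 members, MCM5 and CDC6 in place of MCM10. Promoter motif counts were not run, since no promoter sequences were used here.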
